A study of Mus musculus with 2 samples.

Results

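The positive limb of the circadian clock and the REV-ERB loop that controls it were described in 2 RNA libraries of mouse colon. The genes are Arntl, Clock, Npas2, Rora, Nr1d1, Nr1d2, Bhlhe40 and Bhlhe41, 8 of 27874 gene symbols in the deposited table. They were taken by symbol, and the 29 transcript rows that carry these symbols, of 72178, were summed per gene. One library came from Control mice and one from K14/hyal1 mice, both of C57BL/6J background and both labelled as lamina propria of the colon, the connective tissue layer beneath the gut epithelium. The name K14/hyal1 joins the keratin 14 promoter, active in basal skin cells, with Hyal1, which degrades the matrix polysaccharide hyaluronan. By its title, the study asks how one inflamed epithelium affects another by way of fibroblasts and hyaluronan. Age, sex, the number of animals per library and the hour of collection are absent from the labels used here, so that the genotype and any of these cannot be told apart. Markers of colon epithelium were abundant in both libraries, which goes against a label of lamina propria alone. With 1 library per group no test could be made. Each difference is between 2 libraries, and the brackets hold exact 95% intervals that cover counting error alone.

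The clock is a feedback loop of transcription factors. BMAL1, the product of Arntl, pairs with CLOCK or with its paralog NPAS2 and binds E-box sequences, through which it drives the Period and Cryptochrome repressor genes, the REV-ERB genes Nr1d1 and Nr1d2, and the DEC genes Bhlhe40 and Bhlhe41. The REV-ERB proteins bind ROR elements and repress Arntl with the NCoR corepressor complex, and ROR proteins such as the product of Rora activate through the same elements. DEC1 and DEC2, from Bhlhe40 and Bhlhe41, bind E-boxes and repress. In many mouse tissues the Arntl transcript peaks at about the opposite time of day from the transcripts of the Period, REV-ERB and Dbp genes.

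Promoter windows of 300 bases, from 250 before to 50 after a RefSeq start site (GRCm38.p6), were matched for 7 of the 8 genes, all but Bhlhe40, in 10 windows. Each was searched on both strands for the E-box CACGTG, for the core of the ROR element (TAGGTCA or TGGGTCA) and for the D-box TTANGTAA. The window around one Arntl start site, chr7:113207261-113207560 on the plus strand, held TAGGTCA at positions 31 to 37 counted from the start site, and the Bhlhe41 window, chr6:145865371-145865670 on the minus strand, held CACGTG at positions -153 to -148. These 2 windows are shown 5′ to 3′ because they hold letters that match elements through which the loop is described as working, with the matched letters in capitals. Whether these matches are bound was not tested.
Arntl: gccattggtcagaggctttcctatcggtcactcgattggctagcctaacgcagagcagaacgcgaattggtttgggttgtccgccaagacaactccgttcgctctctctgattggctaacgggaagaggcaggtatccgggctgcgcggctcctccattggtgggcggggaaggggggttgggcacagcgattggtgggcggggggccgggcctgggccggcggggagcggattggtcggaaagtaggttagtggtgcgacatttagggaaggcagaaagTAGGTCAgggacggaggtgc
Bhlhe41: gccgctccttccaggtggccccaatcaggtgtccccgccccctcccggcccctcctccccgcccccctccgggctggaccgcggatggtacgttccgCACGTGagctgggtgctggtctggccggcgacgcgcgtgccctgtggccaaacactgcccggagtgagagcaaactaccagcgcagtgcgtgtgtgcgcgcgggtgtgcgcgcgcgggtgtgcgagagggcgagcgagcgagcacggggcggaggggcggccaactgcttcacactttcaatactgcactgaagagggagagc
Of 32851 windows of all genes, 7.15% held the E-box, 6.45% the ROR core and 2.32% the D-box. Of the 10 windows here, 1 held the E-box, 1 the ROR core and 0 the D-box, which in so few windows is near those shares. The other Arntl window and those of Clock, Npas2, Rora, Nr1d1 and Nr1d2 held none of these letters. An element outside the 300 bases, or one that differs from these exact letters, would be missed by this search. The genes without a match may therefore still hold such elements. The windows ranged from 47.0% to 76.7% G and C, against a median of 52.7% over all windows, and held 9 to 46 CpG pairs, against a median of 7.

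Levels were read as CPM, reads per 1000000 reads of the library, although the deposited values name no unit. On that reading the library totals were estimated at 61105105 reads for Control and 29020301 for K14/hyal1. The listed rows held an estimated 25446240 and 13812941 reads, and the remainder would be in no listed row. The listed rows summed to 416434 and 475975 CPM, on that reading a larger share of the K14/hyal1 library. Another scaling of the values would give other totals and another remainder. The part of this unequal share in the ratios was not tested. The floor used here, 3 reads, was worth 0.0491 and 0.103 CPM. The targeted gene Hyal1 had 3.36 CPM in the Control library and 3.77 CPM in the K14/hyal1 library, a ratio of 1.12 (0.879 to 1.42); whether the transgene's transcript would be counted under this symbol was not tested. Genes with a mean of at least 2.31 CPM passed a filter on low values, and a gene was counted as higher or lower when it was at least 2-fold apart on the log2(CPM + 1) scale. Of 13558 genes past the filter, 3.75% were higher (509 genes) and 1.54% lower (209 genes) in K14/hyal1, and the median log2 ratio was 0.21. After the libraries were scaled to the median gene, 296 were higher and 346 lower.

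All 8 clock genes passed the filter. One of them, Arntl, was at least 2-fold higher in K14/hyal1 and 0 were at least 2-fold lower, beside background shares of 3.75% and 1.54%. The genes were chosen with these ratios known, so the counts describe the pair of libraries and carry no more. Arntl, Clock and Rora were higher in K14/hyal1 and the intervals of all 3 ratios lay above 1. Both REV-ERB genes and both DEC genes were lower, and the intervals of all 4 ratios lay below 1. Npas2 was the 1 gene whose interval held 1. These intervals are for the values as deposited, where the median gene past the filter had a ratio of 1.18. The Npas2 interval, 0.798 to 1.15, lay under that median. In bulk RNA such as this, fewer cells of a type and less RNA per cell cannot be told apart. The median log2 ratio of the 8 genes was -0.17. At 1.5-fold on the same scale 3 of the 8 genes were higher and 0 lower, where 17.7% and 4.89% of all genes past the filter were.

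**Figure D1:**
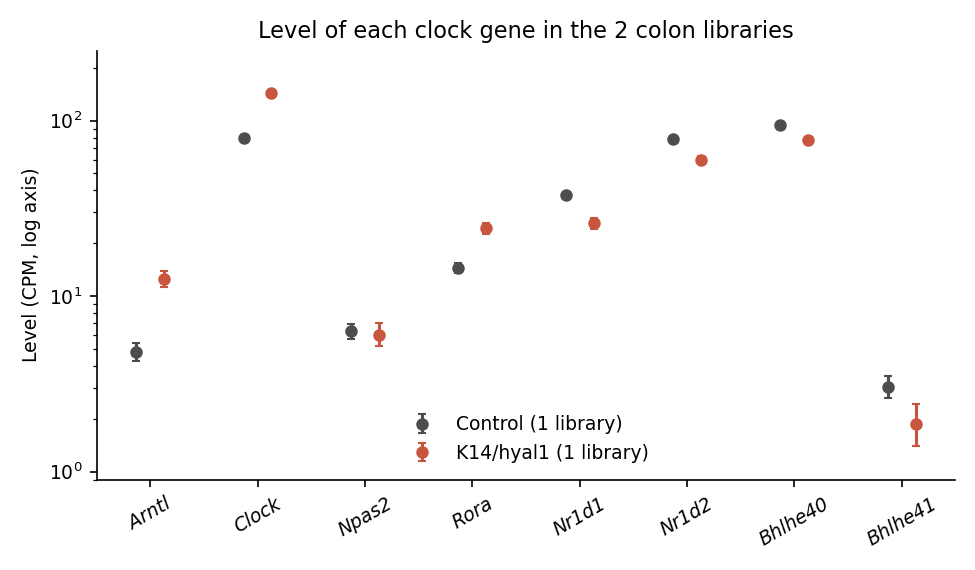
Level of each gene in CPM (log axis) in the Control library (grey) and the K14/hyal1 library (red); points are single libraries and bars are exact 95% Poisson intervals for counting error. Arntl, Clock and Rora sit higher in red, Nr1d1, Nr1d2, Bhlhe40 and Bhlhe41 sit lower, and the bars of Npas2 overlap.

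Among the activators, Arntl showed the largest ratio of the 8 genes. It lies on chromosome 7 at 113207465-113314126 on the plus strand (mm10, GENCODE M21, as for all gene positions here). Its level was 4.81 CPM (4.28 to 5.39, 294 estimated reads) in the Control library and 12.5 CPM (11.2 to 13.8, 362 estimated reads) in the K14/hyal1 library, so that the 2 intervals were far apart. The ratio was 2.59 (2.22 to 3.03) and the log2 ratio 1.21, and 2.23% of genes past the filter had a higher log2 ratio.

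Clock, on chromosome 5 at 76209868-76304792 on the minus strand, encodes the partner of BMAL1. It had 79.6 CPM (77.4 to 81.9, 4865 estimated reads) in the Control library and 144 CPM (139 to 148, 4173 estimated reads) in the K14/hyal1 library. The K14/hyal1 library was higher although it held fewer reads of the gene, because its total was smaller. The ratio was 1.81 (1.73 to 1.88), below the 2-fold criterion with a log2 ratio of 0.84, and 6.58% of genes were higher on that scale.

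Npas2, on chromosome 1 at 39193731-39363236, encodes the paralog that can take the place of CLOCK. It had 6.28 CPM (5.67 to 6.95) in the Control library and 6.03 CPM (5.17 to 6.99) in the K14/hyal1 library, and the intervals overlapped over most of their width. With the values as deposited, the ratio was 0.960 (0.798 to 1.15). That interval leaves room for a difference of up to 1.25-fold in the lower direction and also holds no change. The difference between the paralogs was larger than counting error: the quotient of Clock to Npas2 was 1.88 times higher in K14/hyal1 than in Control (1.57 to 2.26, an approximate interval from the log of the reads, as for all quotients).

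Rora, on chromosome 9 at 68653786-69388246, encodes the nuclear receptor that activates through ROR elements and is also required for type 2 innate lymphoid cells. Its level was 14.5 CPM (13.6 to 15.5) in the Control library and 24.3 CPM (22.5 to 26.2) in the K14/hyal1 library, without overlap of the intervals. The ratio was 1.67 (1.51 to 1.85) and the log2 ratio 0.70, and 11.6% of genes past the filter were higher. Unequal ratios of Rora and Clock were not shown beyond counting error: the quotient of Clock to Rora was 1.08 times higher in K14/hyal1, with an interval from 0.970 to 1.20.

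On the repressor side, the REV-ERB genes were both moderately lower in K14/hyal1. Nr1d1, which encodes REV-ERB alpha and lies on chromosome 11 at 98767932-98775333, had 37.8 CPM (36.3 to 39.4) in the Control library and 25.9 CPM (24.1 to 27.8) in the K14/hyal1 library. The ratio was 0.686 (0.630 to 0.745), a 1.46-fold lower level, and 5.78% of genes had a lower log2 ratio than its -0.53. Nr1d2, which encodes REV-ERB beta and lies on chromosome 14 at 18204054-18239127, had 79.0 CPM (76.8 to 81.3) in the Control library and 59.7 CPM (56.9 to 62.6) in the K14/hyal1 library, a ratio of 0.755 (0.715 to 0.798). In both genes the K14/hyal1 library was the lower and the intervals of the libraries did not overlap. The quotient of Nr1d1 to Nr1d2 was 0.908 times its Control value, with an interval from 0.822 to 1.002, so that a difference between the paralogs was not shown beyond counting error.

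Nr1d1 shares its 3′ end with Thra, the thyroid hormone receptor alpha gene, which runs on the opposite strand. The annotated genes overlap by 1075 bases, 263 of them exonic in both. The library kit marks strand, but the labels do not say whether counting used it, so reads from the shared bases may have been given to either gene. Thra went the other way from Nr1d1, with 20.4 CPM in the Control library and 26.7 CPM in the K14/hyal1 library, a ratio of 1.31 (1.20 to 1.43). Bhlhe41 overlaps Gm43909 on the opposite strand by 1280 exonic bases; that entry had 0.531 CPM in the Control library and 0.345 CPM in the K14/hyal1 library. The antisense neighbours of Bhlhe40 (0610040F04Rik, 0 reads in both libraries) and Rora (Gm15511, 0.0327 and 0.0354 CPM) were at or under the floor. Within introns of Clock and on its strand lie Ube2n-ps1, with 6.86 CPM in Control and 7.58 in K14/hyal1, and Gm43658, with 7.74 and 10.4 CPM. The pseudogenes Gm20428 and Gm3617 within Npas2 were under 1 CPM, the antisense neighbour of Arntl, Gm45355, is not listed, and no other gene overlaps Nr1d2 in the annotation.

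The DEC genes were lower as well. Bhlhe40, which encodes DEC1, also a regulator of T cell responses, lies on chromosome 6 at 108660629-108666925. It had 94.8 CPM (92.3 to 97.2) in the Control library and 77.3 CPM (74.1 to 80.5) in the K14/hyal1 library, a ratio of 0.815 (0.776 to 0.856), and 12.4% of genes had a lower log2 ratio. Bhlhe41, which encodes DEC2 and lies on chromosome 6 at 145858243-145865558, had 3.04 CPM (2.62 to 3.51, 186 estimated reads) in the Control library and 1.86 CPM (1.40 to 2.43, 54 estimated reads) in the K14/hyal1 library, so that its mean was just past the filter. Its ratio was 0.612 (0.443 to 0.832), a wider interval than that of Bhlhe40. The quotient of Bhlhe40 to Bhlhe41 was 1.33 times higher in K14/hyal1 with an interval from 0.980 to 1.81, so that unequal ratios of the paralogs were not shown.

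**Figure D2:**
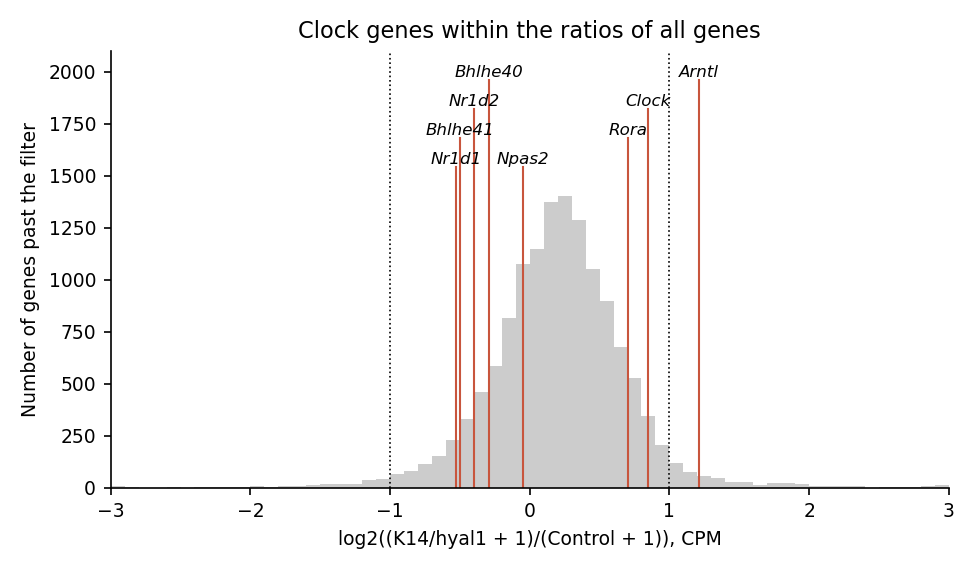
Histogram of log2((K14/hyal1 + 1)/(Control + 1)) in CPM over the 13558 genes past the filter (grey; values beyond 3 in either direction are drawn in the end bins), with a red line at each of the 8 genes and dotted lines at the 2-fold criterion. The median gene is at 0.21; Arntl alone lies past a dotted line, at 1.21, and Nr1d1 is the lowest of the 8 at -0.53.

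Quotients of 2 genes within a library do not depend on how the libraries are scaled to each other. The quotient of Arntl to Nr1d1 was 0.127 in Control and 0.481 in K14/hyal1, 3.78 times higher (3.18 to 4.50). Arntl to Nr1d2 was 3.43 times higher (2.91 to 4.04) and Arntl to Bhlhe40 3.18 times higher (2.71 to 3.74). Arntl was thus higher relative to each of these repressor genes in K14/hyal1 than in Control, whatever the scaling. Clock to Nr1d1 was 2.63 times higher (2.40 to 2.89) and Rora to Nr1d1 2.44 times higher (2.15 to 2.78). Within the activators, Arntl to Clock was 1.44 times higher (1.22 to 1.68) and Arntl to Npas2 2.70 times higher (2.13 to 3.42), so the activators had unequal ratios.

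**Figure D3:**
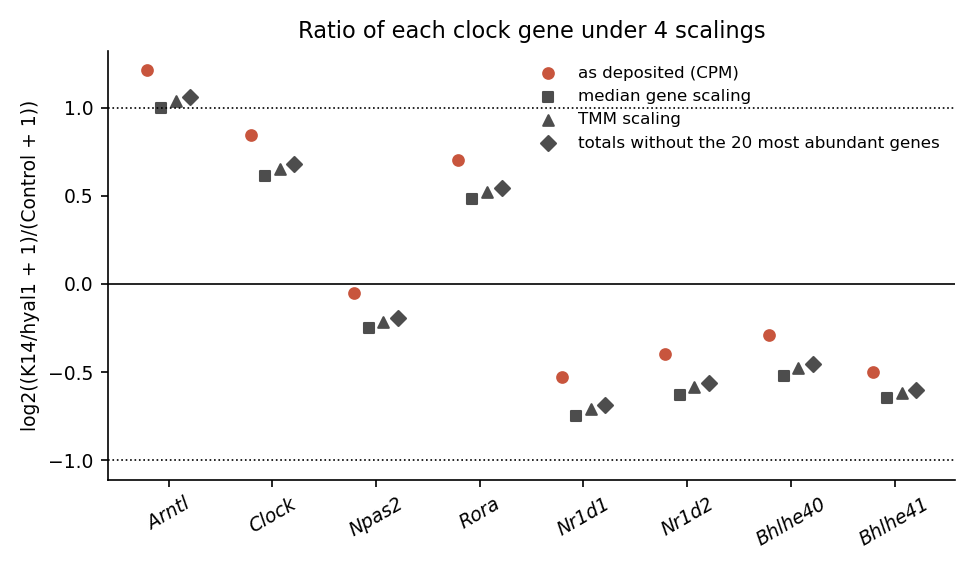
log2((K14/hyal1 + 1)/(Control + 1)) of each gene with the values as deposited (red circles) and after 3 other scalings of the K14/hyal1 library (grey). Each scaling moves the 8 genes down together: Arntl goes from 1.21 to between 0.998 and 1.06, Nr1d1 from -0.53 to between -0.75 and -0.69, and no gene crosses 0.

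The transcript rows carry no transcript names, so they are numbered here by level, and the split of a gene's reads between its rows is an estimate of the authors' software. The intervals given for rows treat the split reads as counts and leave out the error of that split. Unequal ratios between rows of a gene were therefore not shown beyond it. Among rows with a mean of at least 0.5 CPM, all 5 of Arntl were higher in K14/hyal1. The second Arntl row had 0.565 CPM in the Control library and 4.30 CPM in the K14/hyal1 library, a ratio of 7.61 (5.13 to 11.3), while the third had 1.88 and 2.10 CPM, a ratio of 1.12 (0.805 to 1.54). The third row made up 39.1% of the Arntl total in Control and 16.9% in K14/hyal1, and the second row 11.7% and 34.5%. The sixth Arntl row, below that level, went the other way at 0.578 and 0.155 CPM, so the difference as estimated was uneven over the rows. In Clock 5 of 6 rows were higher, and the first 2 rows, with ratios of 1.81 and 2.03, held most of the level. The sixth Clock row had 2.01 CPM in the Control library and 0.604 CPM in the K14/hyal1 library, opposite to the sum. In Rora the first row, 12.9 CPM in the Control library and 22.8 CPM in the K14/hyal1 library, held 89.2% and 93.7% of the level, and the second row went the other way at 1.16 and 0.789 CPM. Both rows of Nr1d1, both of Nr1d2 and all 4 of Bhlhe40 were lower in K14/hyal1. The second Nr1d2 row, 8.97 and 4.69 CPM, had a ratio of 0.523 (0.430 to 0.632), below the 0.785 (0.741 to 0.832) of the first.

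**Figure D4:**
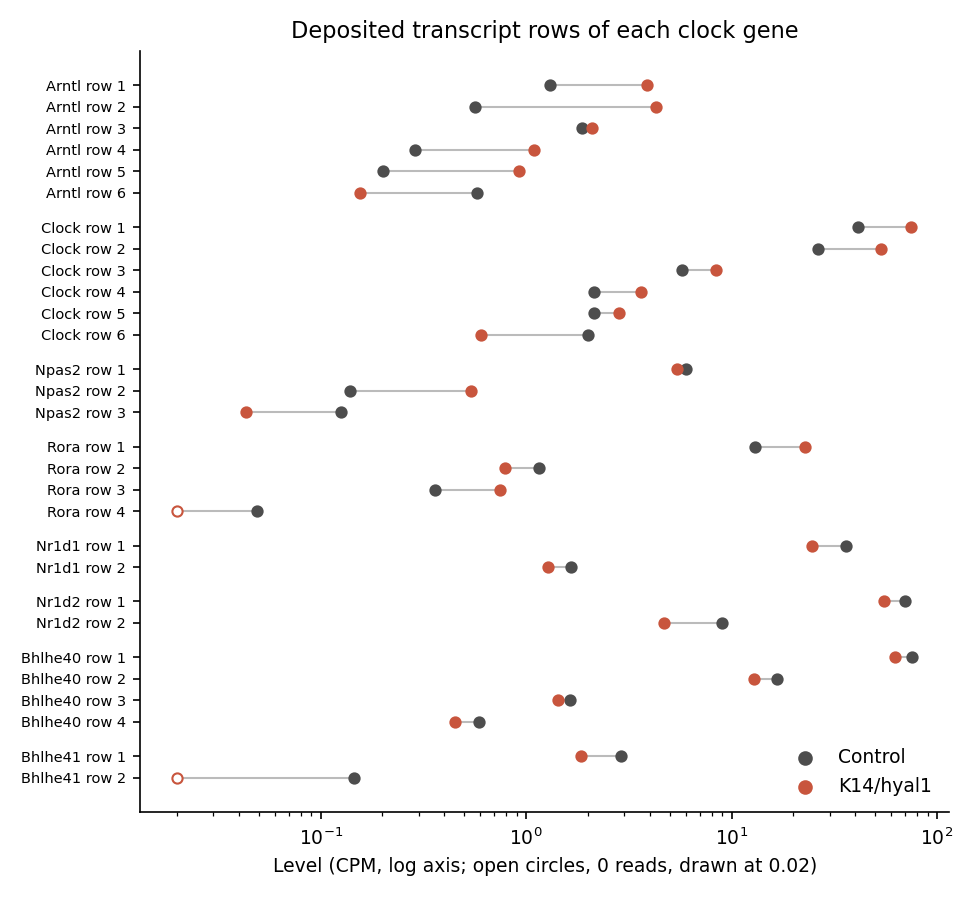
Level in CPM (log axis) of every deposited transcript row of the 8 genes in Control (grey) and K14/hyal1 (red), each point 1 library; rows are numbered by their level within a gene, and open circles are rows with 0 reads, drawn at 0.02. The upper 5 Arntl rows and the upper 5 Clock rows have the red point on the right, and all rows of Nr1d1, Nr1d2 and Bhlhe40 have it on the left.

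The authors' deposited table gives the same levels per gene, within 0.0238% for these genes. In the authors' deposited table the false discovery rate was 0.00211 for Clock, 0.836 for Arntl and 0.945 or more for the other 6 genes. A rate at or under 0.05 was given to 2.26% of its 15869 genes, and to 1.51% in the higher direction. The headers of the authors' deposited table name least-squares means, with each genotype joined to a second term that reads Control in both groups. They do not say what that term stands for, and the rest of the model is not stated in the labels or headers. With 1 library per group the rates in the authors' deposited table compare these libraries and not the genotypes.

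Of 37 other genes of the clock network, 33 passed the filter. Of these, 10 were at least 2-fold lower and 0 higher in K14/hyal1, beside background shares of 1.54% lower and 3.75% higher. The median log2 ratio of the 33 genes was -0.40, beside 0.21 for all genes. Several E-box targets lay further down than the REV-ERB and DEC genes, and the Cryptochrome genes lay close to them. The log2 ratio was -2.54 for Per2, -2.51 for Per1, -1.72 for Per3 and -2.16 for Ciart, all repressors of the loop, and it was -0.72 for Cry2 and -0.64 for Cry1, the least low of the 6 repressors. The bZIP factors Dbp, Hlf and Tef, which pass clock timing on to metabolic genes, had log2 ratios of -2.09, -1.58 and -1.32. Dbp had 52.6 CPM in the Control library and 11.5 CPM in the K14/hyal1 library, a ratio of 0.220 (0.196 to 0.246), far from the 0.686 of Nr1d1. Usp2, a clock-controlled deubiquitinase, had 20.9 and 4.12 CPM, a ratio of 0.197 (0.162 to 0.238), and Nampt, the enzyme of NAD synthesis, was the highest of that subgroup at a log2 ratio of 0.19.

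Among the partners of the REV-ERB and ROR proteins, Ncor1, the corepressor recruited by REV-ERB, had 111 CPM in Control and 116 in K14/hyal1, a ratio of 1.05 (1.01 to 1.09), and Tbl1x, of the same complex, had a log2 ratio of 0.43. The ROR coactivators Ppargc1a and Ppargc1b had log2 ratios of -0.40 and -0.99. Of the kinases and ubiquitin ligases of clock proteins, 0 of 5 past the filter reached the criterion, with Gsk3b lowest at -0.26. Of the 7 cofactors of CLOCK, BMAL1 or PER 0 did, from Kdm5a at 0.48 to Ep300 at -0.71. The background shares were 3.75% higher and 1.54% lower, so counts of 0 in groups this small say little. Nfil3, Arntl2, Rorb and Fbxl21 were below the filter.

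**Figure D5:**
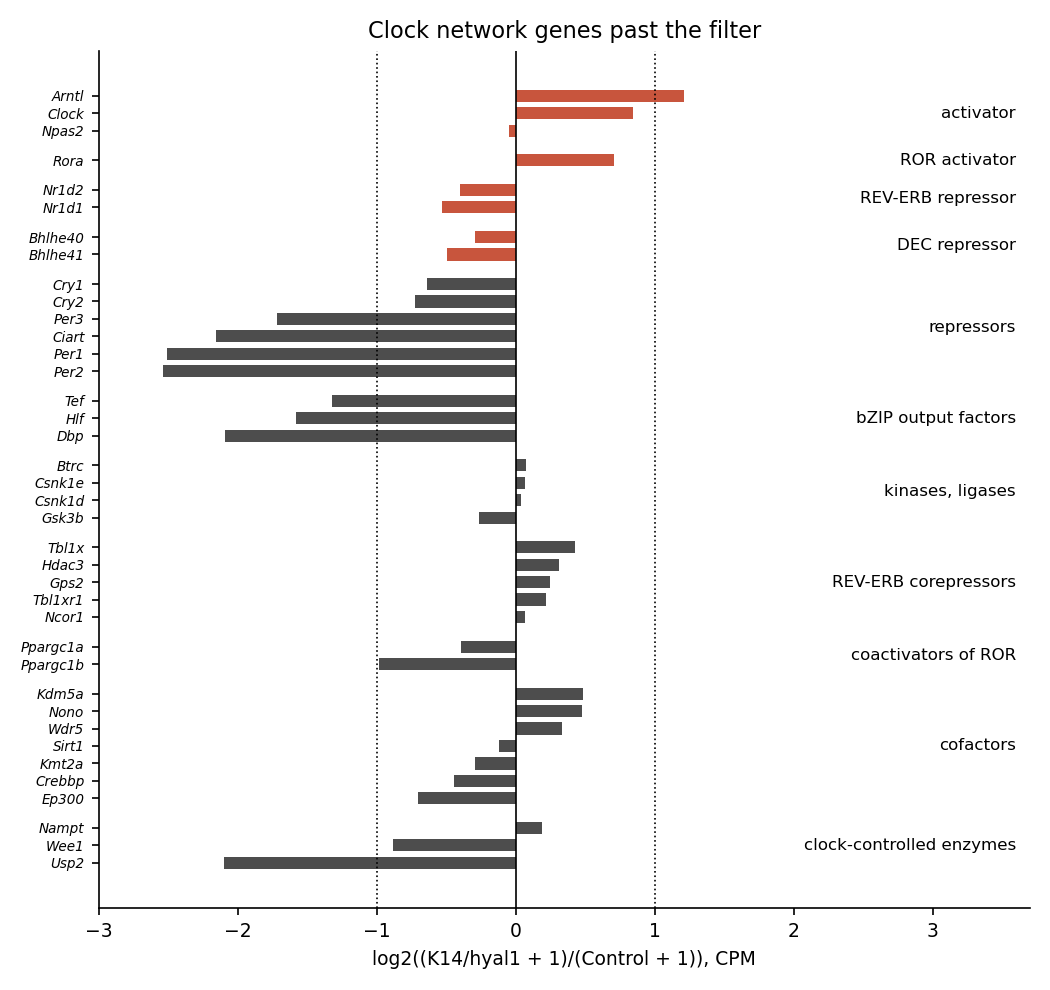
log2((K14/hyal1 + 1)/(Control + 1)) in CPM of the 8 genes (red) and of 30 of the 33 other clock network genes past the filter (grey; the remaining 3 are counted in the text but not drawn), grouped by role, with dotted lines at the 2-fold criterion. Per2 reaches -2.54 and Dbp -2.09, while the REV-ERB and DEC genes stay between -0.53 and -0.29 and Arntl stands alone above 1.

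Cell type markers differed between the libraries beside these genes. The summed level of 6 fibroblast markers was 365 CPM in the Control library and 875 CPM in the K14/hyal1 library. Of these markers, 4 of 6 were at least 2-fold higher and 5 of 6 above Control. Col1a1 went the other way, its ratio being 0.684 (0.632 to 0.740). The largest part of either sum was Col3a1, at 158 and 425 CPM. The 6 leukocyte markers summed to 38.3 and 116 CPM, with 2 of 6 at least 2-fold higher and 5 of 6 above Control. Lyz2 alone had 20.7 and 84.2 CPM, while Cd79a had a ratio of 0.891 (0.574 to 1.35) and Cd3e had 3 estimated reads in each library. The 5 endothelial markers summed to 28.9 and 62.2 CPM, with 1 of 5 at least 2-fold higher and 4 of 5 above Control. Lyve1 went from 5.07 to 21.5 CPM, while Prox1 had a ratio of 0.953 (0.703 to 1.28). The 6 markers of colon epithelium summed to 2766 and 2876 CPM, with 0 of 6 at 2-fold and 3 of 6 above Control. The others were lower in K14/hyal1, with ratios of 0.587 (0.563 to 0.611) for Krt20, 0.788 (0.758 to 0.819) for Vil1 and 0.932 (0.912 to 0.952) for Cdh1. The 4 smooth muscle markers summed to 2276 and 2661 CPM and the 4 of neurons and glia to 7.87 and 8.50 CPM, with 0 at 2-fold. The 5 skin keratinocyte markers summed to 2.63 and 1.93 CPM, 0 of them past the filter. None of these markers was at 0 in both libraries. The part of these marker differences in the ratios of the clock genes was not tested.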

How the data were processed

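Polyadenylated RNA of 1 Control and 1 K14/hyal1 colon library was sequenced on an Illumina HiSeq instrument after a stranded TruSeq mRNA kit, per the labels' protocols. The submitters' processing notes name Partek and mm10; the aligner and the counting rule are unstated there. Values in the authors' deposited table were read as CPM per transcript row from its values, because low values of a library are multiples of 1 step, worth 1 read (0.0164 CPM in Control, 0.0345 CPM in K14/hyal1). An added 0.0001 was taken off each row and the rows of a symbol were added up. Among gene values of at most 300 reads, 81.6% and 82.9% lay within 0.1 of a whole read, so read numbers are estimates, unfit for a count test. The authors' deposited gene table gave a CPM mean, a ratio, a p-value and a false discovery rate per gene. Other deposited sheets were not used here.

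The log2 ratio used a pseudocount of 1 CPM; other ratios are plain ratios of CPM. The filter was the median of the mean CPM over 27116 detected symbols. Intervals were Poisson for levels and Clopper-Pearson for ratios; the reads carry no molecular identifiers and are not independent molecules. The steps were tested on simulated data. The members, gene lists and markers were chosen with earlier results of these data known. Named were all 8 members, genes overlapping them, and in the list of other clock genes those past 2-fold and the highest and lowest of each subgroup; Ncor1 and some further values were added after they were seen, and some genes that the rule selects are counted but not reported here by name. Levels per length were not computed, since rows carry no transcript names. Alternatives were other pseudocounts, scalings, filters and thresholds, the gene table, and the most abundant row per gene. Computation ran in Python 3.11.15 with scipy 1.17.1, pandas 2.3.3, numpy 2.4.6 and matplotlib 3.10.9.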

Additional observations from a re-analysis of the deposited data

How the results depend on the processing

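No paired analysis was possible because each group had 1 library. The sign of the log2 ratio was the same in all 8 alternatives for each of the 8 genes, 1 of these alternatives (no pseudocount, levels raised to the floor) being chosen after seeing the data. Arntl ranged from 0.60 with a pseudocount of 10 CPM to 1.37, and Bhlhe41, with the fewest reads, from -0.71 to -0.14. The number of the 8 genes at least 2-fold higher, 1 as reported, was 0 with a pseudocount of 10 CPM, 0 after scaling to the median gene, where Arntl was at 0.998, just under the criterion, 0 with the filter at a mean of 10 CPM, which removes Arntl, 0 at a 3-fold threshold and 3 at a 1.5-fold threshold. The number of other clock genes at least 2-fold lower, 10 as reported, was 6 at a 3-fold threshold, 15 at a 1.5-fold threshold, 7 with a pseudocount of 10 CPM and 12 under each of the 3 other scalings. Over all genes, 509 higher and 209 lower became 126 and 76 with a pseudocount of 10 CPM, 750 and 276 with 0.1 CPM, 2399 and 663 at 1.5-fold, 156 and 63 at 3-fold, and 296 and 346 after scaling to the median gene. Depth limits Bhlhe41 and Npas2 most, with 54 and 175 estimated reads in K14/hyal1.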
